A study of Bos taurus with 24 samples.

Results

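The miR-17-92 and miR-106b-25 clusters are a pair of related groups of miRNA genes, each transcribed as a single RNA from which several mature miRNAs are cut. Their 10 mature miRNAs were chosen by name from the 796 miRNAs listed for the bovine mammary gland. The miR-17-92 cluster gave 7 of them (bta-miR-17-5p, bta-miR-17-3p, bta-miR-18a, bta-miR-19a, bta-miR-19b, bta-miR-20a and bta-miR-92a) and the miR-106b-25 cluster gave 3 (bta-miR-106b, bta-miR-93 and bta-miR-25), the prefix marking Bos taurus and being left out from here on. All 10 passed the filter on low counts in both breeds.

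Small RNA was sequenced from mammary biopsies of multiparous midlactation cows, 5 Holstein (HOLS) and 6 Montbéliarde (MONT), so that 22 libraries were analysed. Each cow was sampled when fed ad libitum (CONT) and again at the end of 6 days of feed restriction (REST), with no other treatment. The labels put the allowance under restriction at 60% of the net energy for lactation, and the study's methods put it lower. The REST biopsy of a cow always came after its CONT biopsy and, per the methods, from the opposite rear side of the udder, so time, side and feed cannot be told apart. A biopsy is a mixture of cells, and in bulk RNA fewer cells of a type and less miRNA per cell cannot be told apart. Of 10 epithelial miRNAs looked up, 9 were found and none was at 0 in any group. The same held for the miRNAs found of other cell types, skeletal muscle included, so this does not check the label of mammary tissue.

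A mature miRNA guides the silencing complex to mRNAs that match its seed, the short stretch near its 5′ end, so that miRNAs with the same seed share predicted targets. In mammals, miR-17-5p, miR-20a, miR-106b and miR-93 belong to the miR-17 seed family, miR-92a and miR-25 to the miR-92 seed family, and miR-18a and the miR-19 miRNAs to families of their own. The clusters are known for promoting proliferation and survival, with MYC and E2F factors driving their transcription and with CDKN1A and BCL2L11 among their known targets. In the RefSeq annotation of the assembly ARS-UCD2.0, used for names and neighbours, the genes of the miR-17-92 cluster stood in 1 run on chromosome 12, and the genes of miR-106b, miR-93 and miR-25 lay on chromosome 25 within MCM7, a subunit of the helicase that opens DNA for replication. A paralogous cluster on chromosome X held miR-106a, miR-18b, miR-20b and miR-363, together with second genes for miR-19b and miR-92a. The deposited tables give 1 count for miR-19b and 1 for miR-92a, so the loci behind them cannot be told apart.

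The 10 miRNAs were far from equal in abundance. Levels are given as CPM, the count set to a common library size of 1000000 after TMM scaling, which corrects the library total for a few dominant miRNAs; each read covers a whole mature miRNA, so CPM does not depend on length, although adapter ligation favours some sequences over others. Over the 22 libraries, miR-92a was the most abundant member at 4674 ± 749 CPM (mean ± SD), the 22nd highest of all miRNAs. Next came miR-25 at 1998 ± 346 CPM and miR-93 at 340 ± 69.1 CPM. The remaining order was miR-19b at 131 ± 30.1 CPM, miR-17-5p at 71.3 ± 10.8, miR-106b at 63.8 ± 8.98, miR-20a at 30.4 ± 5.21, miR-17-3p at 17.3 ± 4.59, miR-18a at 14.04 ± 7.93 and miR-19a at 10.9 ± 3.52. Within the miR-17-92 cluster the mean of miR-92a was 427 times that of miR-19a, and within the miR-106b-25 cluster that of miR-25 was 31.3 times that of miR-106b.

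Most of this order held in every library. Each member exceeded the next one down in 22 of 22 libraries, with 3 exceptions. miR-17-5p exceeded miR-106b in 14 libraries, miR-17-3p exceeded miR-18a in 16, and miR-18a exceeded miR-19a in 14, so these neighbours were not separated beyond their spread. Because of the range of levels, a sum over a cluster mostly followed 1 member. miR-92a made up 91.3% to 96.3% of the summed CPM of the miR-17-92 cluster, and miR-25 made up 80.6% to 86.2% of that of the miR-106b-25 cluster.

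**Figure D1:**
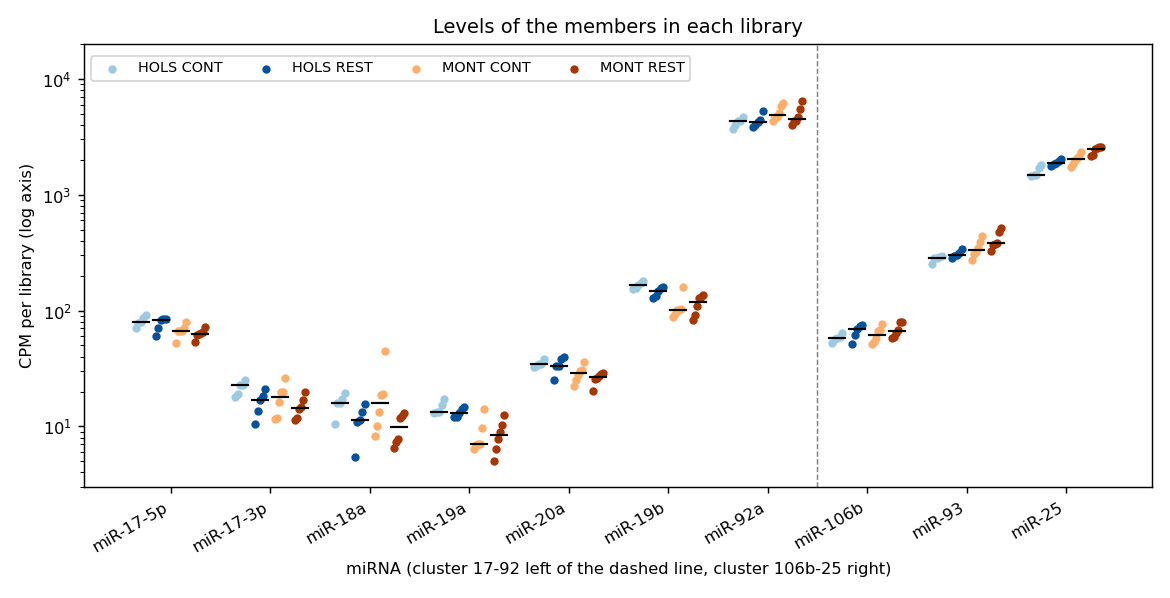
CPM on a log axis for each of the 10 miRNAs (x axis), with 1 point per library, coloured by breed and period, and a black bar at the median of each group. miR-92a and miR-25 stand far above the rest of their clusters, and miR-18a of 1 MONT CONT library, at 44.4 CPM, lies apart from its group.

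After feed restriction in HOLS, no member of either cluster passed the test of the unpaired fit. The fitted change of all 3 members of the miR-106b-25 cluster was above 0, between 0.18 and 0.32 on the log2 scale with a median of 0.24, while 53.5% of all miRNAs tested were above 0. In the miR-17-92 cluster, 2 of 7 members were above 0 and 5 below, between -0.44 and 0.11 with a median of -0.079, while the median of all 374 miRNAs tested was 0.024. With edgeR's quasi-likelihood test, 0 of the 10 members passed an adjusted p of 0.05, against 2.41% of all miRNAs tested, and 1 member (miR-25) had an unadjusted p under 0.05, against 23.3% of all. With the cow as a block, 2 members passed, miR-25 upward and miR-18a downward, against 16.3% of all miRNAs tested (8.02% upward and 8.29% downward). DESeq2 called 1 member, miR-25, against 5.45% of the miRNAs to which it gave an adjusted p.

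The largest estimate in the miR-106b-25 cluster in HOLS was that of miR-25, a miRNA of the miR-92 seed family. In CONT it stood at 1479.6 CPM in cow 1155, 1463 in cow 1165, 1479 in cow 2182, 1684 in cow 8200 and 1798 in cow 9195. In REST the same cows had 1951, 1772, 1824, 1861 and 2047 CPM. Each cow was higher in REST, while the groups overlapped slightly, since cow 9195 in CONT exceeded cow 1165 in REST. On the scale of the authors' normalized counts, set within the breed, the lowest REST value, 22737, exceeded the highest CONT value, 21969, so the overlap depended on the scaling. The fitted log2 fold change was 0.32 (SE 0.10, 95% interval 0.094 to 0.54), with an edgeR adjusted p of 0.119 in the unpaired fit and 0.028 with the cow as a block. DESeq2 gave 0.31 with an adjusted p of 0.022. The blocked call was lost when cow 1155, 1165, 2182 or 9195 was left out and held without cow 8200 (0.34, edgeR adjusted p = 0.040).

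The other members of the miR-106b-25 cluster, both of the miR-17 seed family, had positive estimates in HOLS that did not pass the test. miR-93 lay between 255 and 297 CPM in CONT and between 282 and 338 CPM in REST. Its fitted log2 fold change was 0.18 (SE 0.10, edgeR adjusted p = 0.307). The cow-by-cow change in CPM was positive in 5 of 5 cows, as for 9.28% of all miRNAs. Relative to the total count only, miR-93 was lower in REST in cows 1155 and 1165. miR-106b lay between 52.7 and 64.1 CPM in CONT and between 51.4 and 75.7 CPM in REST, with a fitted log2 fold change of 0.24 (SE 0.12, edgeR adjusted p = 0.250).

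In the miR-17-92 cluster, the lowest estimate in HOLS was that of miR-18a, of a seed family of its own. Its CPM in CONT was 17.4 in cow 1155, 16.05 in cow 1165, 10.4 in cow 2182, 19.4 in cow 8200 and 16.01 in cow 9195, and in REST 11.4, 15.6, 5.46, 13.4 and 10.97 in the same order. Every cow was lower in REST, cow 1165 hardly so, and the groups overlapped. The fitted log2 fold change was -0.44 (SE 0.23, edgeR adjusted p = 0.281), and with the cow as a block -0.47 (edgeR adjusted p = 0.043). That blocked call held only without cow 1165 (-0.61, edgeR adjusted p = 0.031) when each cow was left out in turn; miR-17-3p was also called then. These are low levels, with 81 to 264 counts per HOLS library.

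The 2 arms of the miR-17 hairpin had different estimates. miR-17-3p, the less abundant arm, lay between 17.98 and 25.2 CPM in CONT and between 10.5 and 21.2 CPM in REST, a log2 fold change of -0.37 (SE 0.17, edgeR adjusted p = 0.212). miR-17-5p lay between 71.2 and 92.1 CPM in CONT and between 59.9 and 85.4 CPM in REST (-0.038, edgeR adjusted p = 0.923). The ratio of miR-17-5p to miR-17-3p was higher in REST in 4 of 5 HOLS cows, by 0.35 ± 0.27 on the log2 scale (mean ± SD), and in 3 of 6 MONT cows, by 0.13 ± 0.40.

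The 4 other members of the cluster had small estimates in HOLS. miR-20a, from the miR-17 seed family, was at 0.027, miR-19a at -0.079, miR-19b at -0.13 and miR-92a, the most abundant, at 0.11, with edgeR adjusted p-values from 0.475 (miR-19b) to 0.957 (miR-20a). miR-19b was lower in REST in 5 of 5 HOLS cows, a pattern that 20.9% of all miRNAs also showed.

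These directions in HOLS depended in part on scaling. When libraries were scaled by the total count only, the median of all miRNAs moved from 0.024 to -0.15, and all 7 members of the miR-17-92 cluster were then below 0, with a median of -0.25. The 3 members of the miR-106b-25 cluster stayed above 0, miR-93 only just (0.0056), with a median of 0.067.

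In MONT, 0 of the 10 members passed the edgeR test, as did 0% of the 349 miRNAs tested, and 2 members (miR-18a and miR-25) had an unadjusted p under 0.05, against 13.5% of all. The estimates again lay above 0 for the 3 members of the miR-106b-25 cluster, with a median of 0.25, and for 1 of 7 members of the miR-17-92 cluster, with a median of -0.078. All miRNAs tested had a median of -0.013, and 49% of them were above 0. Blocking by cow or using DESeq2 also gave 0 calls. The paper proposes lower quality of the MONT libraries among possible reasons for its own lack of calls in MONT, which was not tested here.

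miR-25 had a similar estimate in MONT. Its CONT values lay between 1724 and 2344 CPM (median 2036) and its REST values between 2141 and 2563 CPM (median 2503). The groups overlapped, but all 6 cows were higher in REST in CPM, cow 9615 least. Its fitted log2 fold change was 0.26 (SE 0.11, 95% interval 0.019 to 0.50, edgeR unadjusted p = 0.036, adjusted p = 0.355). miR-93 lay between 271 and 444 CPM in CONT (median 334) and between 325 and 518 CPM in REST (median 381). Its log2 fold change was 0.25 (SE 0.16, edgeR adjusted p = 0.448), and that of miR-106b was 0.14 (SE 0.15, edgeR adjusted p = 0.636).

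The lowest estimate in MONT was again that of miR-18a. Its CONT values lay between 8.27 and 44.4 CPM (median 16.04) and its REST values between 6.55 and 13.2 CPM (median 9.78), and all 6 cows were lower in REST. Its log2 fold change was -0.96 (SE 0.38, edgeR adjusted p = 0.314). The highest CONT library came from cow 2614, and without that cow the log2 fold change was -0.56 (edgeR adjusted p = 0.869).

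Cow 9615 stood apart in MONT. Its CONT and REST libraries deviated from their group means in opposite ways over 349 miRNAs (r = -0.33), and in this cow miR-93 and miR-106b were each lower in REST, by 0.26 on the log2 scale. Without cow 9615 the unpaired edgeR fit called 46 of 358 miRNAs (12.8%) but 0 members. With the cow as a block and without cow 9615 it called 2 members, miR-25 (0.29, edgeR adjusted p = 0.042) and miR-18a (-0.84, edgeR adjusted p = 0.017), against 39.1% of all miRNAs tested (18.2% upward and 20.9% downward). A share of 2 in 10 was thus not above the background of that fit.

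Across the breeds and on the scale of CPM, miR-25 and miR-18a were the 2 members whose change had the same sign in all 11 cows. The size of the change of miR-18a varied widely. miR-25 was higher in REST in 11 of 11 cows, by 0.26 ± 0.12 on the log2 CPM scale (mean ± SD, range 0.046 to 0.46). Of the 388 miRNAs on the common scale, 0.773% were higher in every cow. Relative to the total count only, miR-25 was lower in REST in cow 9615 (17040 of 9137882 counts in CONT and 13306 of 7817027 in REST). miR-18a was lower in REST in 11 of 11 cows, by -0.66 ± 0.45 (range -1.75 to -0.043), while 2.84% of the miRNAs were lower in every cow. miR-93 was higher in 10 of 11 cows and miR-106b in 9 of 11. All 3 members of the miR-106b-25 cluster were higher in REST in 9 of 11 cows, the exceptions being cow 2182, where miR-106b was lower, and cow 9615. These counts of cows depended on scaling. Relative to the total count only, miR-93 was also lower in cows 1155 and 1165, and miR-106b in cows 1155, 1640 and 2614.

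**Figure D2:**
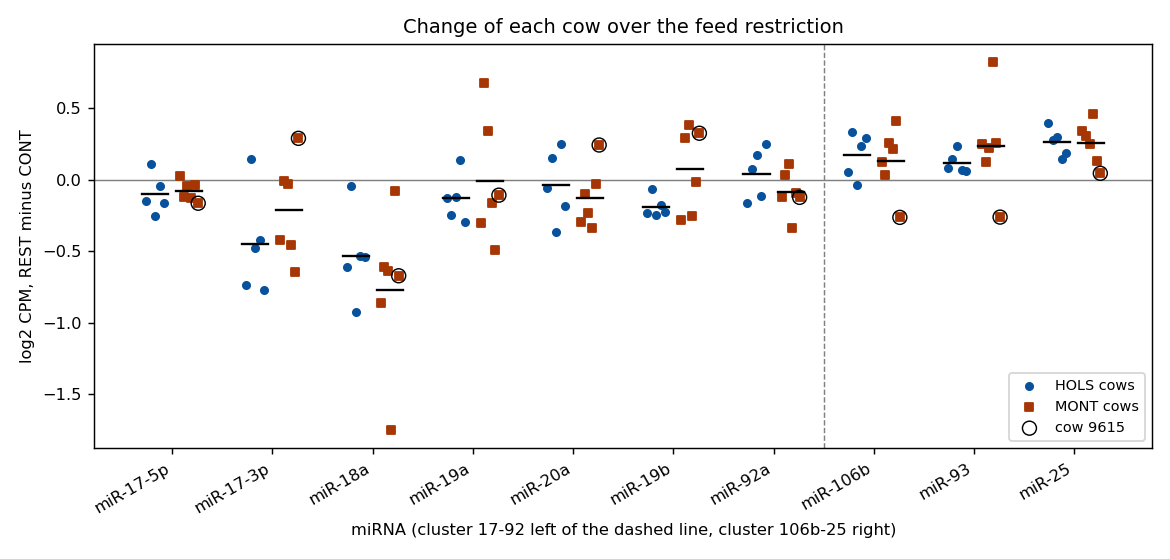
Change of each cow in log2 CPM from CONT to REST (y axis) for each miRNA (x axis), with circles for HOLS cows, squares for MONT cows, black bars at the breed mean and rings around cow 9615. All points of miR-25 lie above 0 and all points of miR-18a lie below 0, between -1.75 and -0.043.

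Other measures of the same libraries are given here beside these changes. The total count was higher in REST in 9 of 11 cows. In the remaining cows, 9195 and 9615, miR-25 changed by 0.19 and 0.046 and miR-18a by -0.54 and -0.67 on the log2 scale. Summed CPM of 7 leukocyte miRNAs lay between 2257 and 3734 in HOLS CONT and between 2402 and 5661 in HOLS REST, and between 2527 and 8450 in MONT CONT and between 2876 and 6406 in MONT REST. Of these miRNAs, 6 of 7 had a positive estimate in each breed, with 0 of 7 called and no marker at 0 in any group. The 2 smooth muscle miRNAs (miR-143 and miR-145) lay between 152030 and 237578 summed CPM in HOLS CONT and between 213382 and 275268 in HOLS REST. In MONT they lay between 194738 and 374131 in CONT and between 195489 and 453558 in REST. Both had a positive estimate in each breed, with a log2 median of 0.35 in HOLS and 0.20 in MONT and 0 of 2 called in either. Of the 2 skeletal muscle miRNAs found, 1 had a positive estimate in each breed, with 0 called. The 3 red blood cell miRNAs lay between 2360 and 4022 summed CPM in HOLS CONT and between 3474 and 4223 in HOLS REST, and between 2317 and 5429 in MONT CONT and between 1124 and 4538 in MONT REST, with a positive estimate for 1 of 3 in HOLS and 0 of 3 in MONT and 0 called. Of 9 epithelial miRNAs, 3 had a positive estimate in HOLS and 2 in MONT, with a log2 median of -0.098 in HOLS and -0.27 in MONT and 0 called. The 2 endothelial miRNAs lay between 23974 and 33573 summed CPM in HOLS CONT and between 28873 and 41791 in HOLS REST, with 2 of 2 estimates above 0, a median of 0.32 on the log2 scale and 0 called. In MONT they lay between 24307 and 30710 summed CPM in CONT and between 17237 and 32089 in REST, with 0 of 2 estimates above 0, a median of -0.078 and 0 called. The part of any of these measures in the changes of the members was not tested.

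The breeds did not differ detectably in their response. For the difference between the breeds in the change from CONT to REST, 0 of the 10 members passed the edgeR test, as did 0% of all miRNAs tested, and 0 members had an unadjusted p under 0.05, against 0.773% of all. The difference for miR-25 was -0.0065 on the log2 scale (MONT minus HOLS, SE 0.14, 95% interval -0.30 to 0.29, edgeR adjusted p = 0.991). The estimates farthest from 0 were those of miR-18a at -0.47 (95% interval -1.48 to 0.54) and miR-19b at 0.25 (95% interval -0.19 to 0.70). With the cow as a block, the estimates lay between -0.26 and 0.26 in the miR-17-92 cluster and between -0.046 and 0.12 in the miR-106b-25 cluster, with 0 called. The interval of miR-25 thus included differences about as large as its change in MONT, 0.26. In all, 7 of the 10 members had the same sign of change in both breeds.

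Ratios within a library do not depend on its scaling, and they describe the balance of the clusters. The summed CPM of the miR-106b-25 cluster relative to the miR-17-92 cluster had a median of 0.409 in HOLS CONT and 0.511 in HOLS REST, and of 0.435 in MONT CONT and 0.564 in MONT REST. It was higher in REST in 4 of 5 HOLS cows, by 0.21 ± 0.20 on the log2 scale (mean ± SD), and in 6 of 6 MONT cows, by 0.34 ± 0.28. The median change of the members of the miR-106b-25 cluster exceeded that of the miR-17-92 cluster in 10 of 11 cows, cow 9615 being the exception.

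The same comparison can be made between miRNAs with a shared seed. Within the miR-92 seed family, the ratio of miR-25 to miR-92a was higher in REST in 4 of 5 HOLS cows, by 0.22 ± 0.23 on the log2 scale, and in 6 of 6 MONT cows, by 0.34 ± 0.25. In the miR-17 seed family, the sum of miR-93 and miR-106b relative to that of miR-17-5p and miR-20a was higher in REST in 5 of 5 HOLS cows, by 0.21 ± 0.18, and in 5 of 6 MONT cows, by 0.31 ± 0.36. Cow 9195 was the exception in the first ratio and cow 9615 in the second. Within the miR-17-92 cluster, the ratio of miR-18a to miR-17-5p was lower in REST in 11 of 11 cows, by a mean of -0.44 in HOLS and -0.69 in MONT on the log2 scale. The ratio of miR-19b to miR-92a was higher in REST in 0 of 5 HOLS cows, with a mean change of -0.23, and in 5 of 6 MONT cows, with a mean change of 0.16. These ratios were described without a test.

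**Figure D3:**
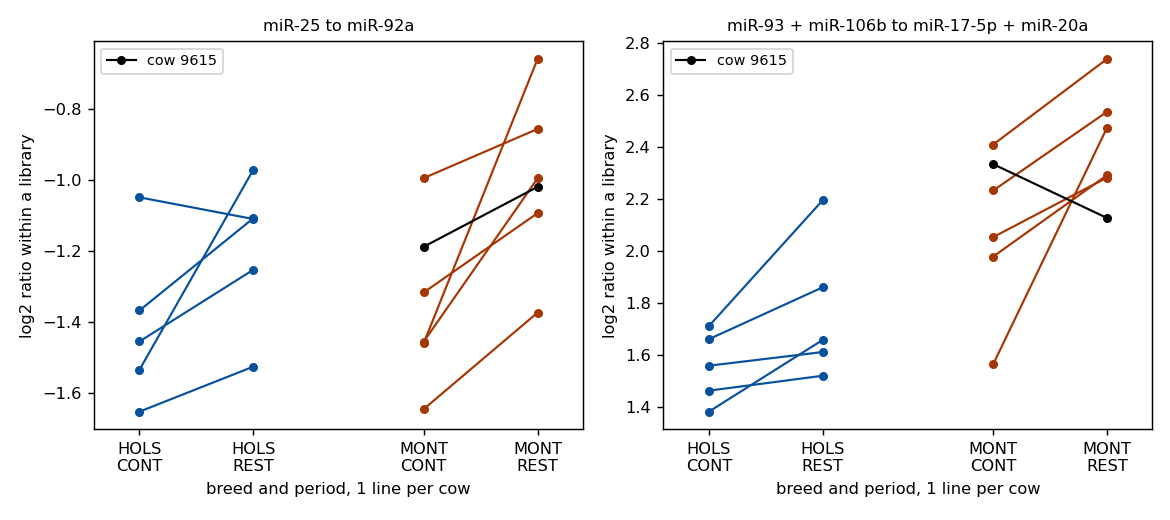
Log2 ratio within each library of miR-25 to miR-92a (left) and of miR-93 plus miR-106b to miR-17-5p plus miR-20a (right), with 1 line per cow from CONT to REST, HOLS in blue, MONT in brown and cow 9615 in black. The left ratio falls only in 1 HOLS cow and the right ratio only in cow 9615.

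Between the breeds, the estimates of the miR-106b-25 cluster lay above 0 (higher in MONT) for 3 of 3 members in each period, and those of the miR-17-92 cluster lay below 0 for 5 of 7 members in CONT and 6 of 7 in REST. Of all miRNAs tested, 51.3% lay above 0 in CONT and 55.9% in REST. In CONT, 3 of 10 members differed by edgeR's test, against 7.47% of all 388 miRNAs tested (3.09% higher and 4.38% lower in MONT). miR-19a ranged from 13.2 to 17.4 CPM in HOLS and from 6.38 to 14.1 in MONT (median 7.04), a log2 difference of -0.76 (MONT minus HOLS, SE 0.22, edgeR adjusted p = 0.040). miR-19b ranged from 152 to 179 CPM in HOLS and from 87.1 to 161 in MONT (median 101), with a difference of -0.61 (SE 0.15, edgeR adjusted p = 0.040). In both, the highest MONT library was that of cow 2614, which overlapped the HOLS values, while the other 5 MONT libraries lay below the lowest HOLS value. miR-25 was higher in MONT by 0.36 (SE 0.10, edgeR adjusted p = 0.040), with overlapping groups.

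In REST, 2 of 10 members differed, both higher in MONT, against 8.76% of all miRNAs tested called higher in MONT. miR-25 was higher by 0.35 (SE 0.10, edgeR adjusted p = 0.025). Every MONT value (2141 to 2563 CPM) exceeded every HOLS value (1772 to 2047 CPM), which 5.93% of all miRNAs also showed. This separation depended on scaling. Relative to the total count only, MONT cow 9615 (13306 of 7817027 counts) lay below HOLS cow 9195 (27241 of 14319288). miR-93 was higher by 0.42 (SE 0.13, edgeR adjusted p = 0.042), with overlapping groups. miR-19a, miR-20a and miR-17-5p had estimates of -0.63, -0.38 and -0.27, with edgeR adjusted p-values of 0.057, 0.069 and 0.129, and were called lower in MONT by DESeq2, against 9.02% of the miRNAs to which it gave an adjusted p.

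These breed calls lay close to the threshold. In CONT, all 3 were lost when libraries were scaled by the total count only, without the filter on low counts, and in 9 of 11 fits that each left out 1 cow. In REST, the call of miR-25 held in 4 of 11 such fits and that of miR-93 in 1 of 11, both were lost without the filter, and that of miR-93 was lost with the total count only (edgeR adjusted p = 0.052). They were made on 5 and 6 animals, and the libraries of each breed had been tabulated separately by the authors. Per the study, the MONT libraries held more short reads and adapters and a smaller share of clean reads than the HOLS libraries. Breed and library quality thus cannot be told apart here. For the 7 leukocyte miRNAs, 7 of 7 estimates lay above 0 (higher in MONT) in CONT, with a median of 0.39 on the log2 scale and 1 called, and 6 of 7 in REST, with a median of 0.073 and 0 called. Of the 9 epithelial miRNAs, 2 lay above 0 in each period, with a median of -0.13 in CONT and -0.32 in REST. In CONT 0 were called and, in REST, 1 was called higher and 1 lower in MONT. Their summed CPM had a median of 43826 in HOLS CONT and 28848 in MONT CONT, and of 43532 in HOLS REST and 25632 in MONT REST, with overlapping ranges. Both endothelial miRNAs lay below 0 in each period, with a median of -0.093 and 0 called in CONT and of -0.43 and 1 called in REST. Of the 3 red blood cell miRNAs, 3 lay above 0 in CONT and 0 in REST, with 0 called. Of the 2 smooth muscle miRNAs, 1 lay above 0 in each period, with 0 called. Both skeletal muscle miRNAs found lay above 0 in each period, with a median of 0.35 in CONT and 0.42 in REST and 0 called. The part of any of these lists in the breed differences was not tested.

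**Figure D4:**
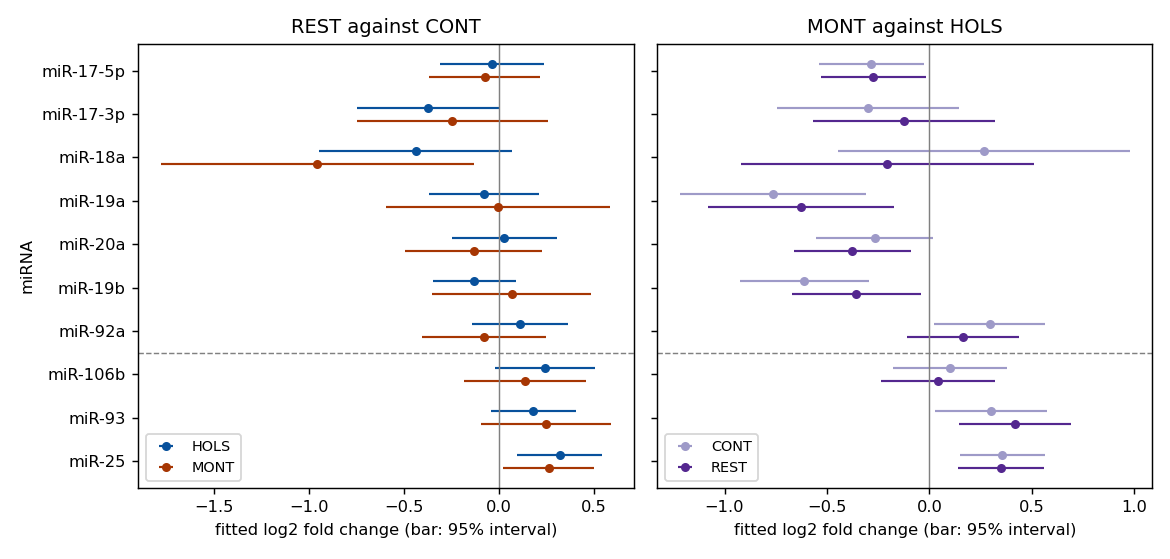
Fitted log2 fold change with its 95% interval (x axis) for each miRNA (y axis), REST against CONT in each breed (left) and MONT against HOLS in each period (right). In the left panel only the intervals of miR-25, in both breeds, and of miR-18a in MONT exclude 0. In the right panel, among others, miR-19a and miR-19b lie to the left of 0 and miR-25 and miR-93 to the right in both periods. In each period 6 of 10 members had an edgeR unadjusted p under 0.05, against 86 (CONT) and 125 (REST) of 388 miRNAs.

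Of 7 relatives of the members from other loci, miR-367 had at most 1 count in a library and was not tested. The paralogous X cluster was expressed at low levels, with group medians of 5.59 to 7.70 CPM for miR-106a, 4.68 to 7.12 for miR-20b and 1.03 to 2.54 for miR-18b, and of 34.9 to 49.6 for miR-363. In HOLS, all 4 had negative estimates, while 53.5% of all miRNAs tested were above 0, and none of the 4 passed the unpaired edgeR test. The estimate of miR-18b was -1.14 (SE 0.30, edgeR adjusted p = 0.054), on 4 to 30 counts per library. Without a block, miR-18b was called by DESeq2 (-1.17, adjusted p = 0.018) and by edgeR with the total count only (-1.31, adjusted p = 0.024). It was not called by edgeR with DESeq2's size factors (adjusted p = 0.051) or with no filter (adjusted p = 0.097). With the cow as a block, miR-18b was called (-1.19, edgeR adjusted p = 0.014), as was miR-106a (-0.54, edgeR adjusted p = 0.047). That fit called 8.29% of all miRNAs tested downward. When each cow was left out of the blocked fit in turn, the call of miR-18b held in 5 of 5 fits and that of miR-106a in 0 of 5 (edgeR adjusted p from 0.056 to 0.090). The estimates of miR-20b and miR-363 were -0.53 and -0.42. miR-20b was lower in REST in 11 of 11 cows, as miR-18a was, a pattern shown by 2.84% of all miRNAs.

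miR-92b and miR-32, members of the miR-92 seed family on other chromosomes, showed no such direction in HOLS, with estimates of -0.059 and 0.016 on the log2 scale. In MONT, all 6 tested relatives had estimates below 0, between -0.85 and -0.060, while 49% of all miRNAs tested were above 0. None of the 6 passed the edgeR test.

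Members of a cluster did not all vary together among libraries. Correlations of log2 CPM, centred on the mean of each breed and period over the 22 libraries, ranged from -0.60 to 0.77 among the 21 pairs of the miR-17-92 cluster, with a median of 0.30, and from 0.21 to 0.49 among the 3 pairs of the miR-106b-25 cluster. In the miR-17-92 cluster, every negative pair involved miR-17-3p or miR-92a, which correlated with each other at 0.64. All pairs among miR-17-5p, miR-18a, miR-19a, miR-19b and miR-20a were positive, from 0.30 (miR-17-5p and miR-19a) to 0.77 (miR-19a and miR-19b). Across the clusters the 21 pairs had a median of -0.086, from -0.57 (miR-17-3p and miR-106b) to 0.77 (miR-18a and miR-106b). The values of a library share its scaling and its cow, so these are descriptions. The 3 other miRNAs whose pattern was most like the mean of the miR-17-92 cluster were miR-669 (r = 0.73), miR-362-5p (r = 0.70) and miR-190a (r = 0.70). For the miR-106b-25 cluster they were miR-222 (r = 0.80), miR-127 (r = 0.79) and a predicted miRNA of chromosome 21 (r = 0.78).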

How the data were processed

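Per the study's methods, the authors trimmed small RNA reads, quantified and annotated them with ncPRO-seq, and used miRDeep2 for alignment to the Bos taurus genome btau5.0.1 and to identify miRNAs. The authors deposited 1 table per breed with raw counts per miRNA and library, counts normalized with DESeq2 (a signal on a scale set within the breed), a log2 fold change and p-values. The authors' fold changes and p-values were not used. Normalized counts served for 1 range. Tools named in the submitters' processing notes were bcl2fastq 2.17.1.14 and DESeq2 1.18.1. Totals ranged from 6087865 to 18913916 counts per library. Of 24 labelled samples, 2 from another HOLS cow were not analysed here.

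Deposited counts were tested with edgeR 4.0.16 in R 4.3.3 (TMM, filterByExpr with a minimum count of 10, quasi-likelihood test, Benjamini-Hochberg adjustment over all miRNAs tested, threshold 0.05), within each breed without a block, and over all 22 libraries (388 miRNAs) for comparisons of breeds. That joint fit treated the 2 libraries of a cow as independent. CPM used TMM factors over all libraries, and cow-by-cow changes used log2 CPM with a prior count of 1. Alternatives were DESeq2 1.42.0, its size factors, the total count only, no filter, leaving out each cow and the cow as a block. Leaving out each cow within the blocked fit was added after seeing the data. The block pairs the libraries of the same animal. Deviations from the group means correlated within cows at 0.25 to 0.54 in HOLS and at -0.33 (cow 9615) to 0.76 in MONT. Scripts were checked on simulated counts.

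The text names the 10 members, 7 relatives and, for each cluster, the 3 miRNAs most like its mean. The members and lists were chosen with earlier results of these data known. No coordinates are given, since the RefSeq annotation used was of another assembly. The 95% intervals cover the spread between these cows only.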

Additional observations from a re-analysis of the deposited data

Results flagged for a closer look

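In 2 of 40 groups (10 members in 4 groups), 1 library lay far from the rest of its group by Dixon's test, and chance alone would give about 2. Both were the MONT CONT library of cow 2614. Its miR-18a level was 44.4 CPM, while the group's median was 16.04 CPM. Its miR-19b level was 161 CPM, while the group's median was 101 CPM. Without this cow, the fitted change of miR-18a in MONT was -0.56 in place of -0.96 on the log2 scale, and the breed difference of miR-19b in CONT was -0.73 in place of -0.61.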

How the results depend on the processing

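Restriction in HOLS called 0 members in the unpaired fit, 1 with DESeq2, 2 with the replicate block, 0 to 2 when each cow was left out with or without the block, and 0 under the other alternatives. Restriction in MONT called 0 under each alternative, the block included, and 0 to 2 when each cow was left out with or without the block, the 2 being with the block and without cow 9615. The block changed no other call, and no paired analysis was possible for the breed contrasts because each cow belongs to 1 breed. The breed contrast in CONT called 3 members, 0 with the total count only or no filter, and 0 to 3 without each cow. In REST it called 2 members, 5 with DESeq2, 4 with its size factors, 1 with the total count only, 0 with no filter, and 0 to 2 without each cow.

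Signs changed for estimates near 0, none of them past the threshold. In HOLS, total-count scaling put miR-20a at -0.15 and miR-92a at -0.065, and without each cow, with or without the block, miR-20a lay between -0.062 and 0.093 and miR-92a between -0.0072 and 0.14. In MONT, miR-19a was at 0.0077 with DESeq2, 0.0039 with its size factors, 0.0033 with no filter and 0.0038 with the block, and without each cow, with or without the block, miR-19a lay between -0.12 and 0.10, miR-19b between -0.050 and 0.21 and miR-92a between -0.18 and 0.0086. The difference between breeds for miR-25 was 0.091 with the total count only and between -0.15 and 0.040 without each cow. Without each cow, miR-18a in CONT lay between -0.16 (without cow 2614) and 0.43, and miR-106b in REST, at -0.0020 with no filter, between -0.058 and 0.091. The cause of these differences was not tested. The mean change of each ratio moved by less than 1 SD between cows under each alternative. With 5 and 6 cows, and as few as 40 counts of miR-19a and 48 of miR-18a in a library, small changes of these miRNAs were not detectable.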
